A study of Mus musculus with 14 samples.

Results

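The RNA 3′ ends described here are 475 poly(A) sites whose read count was higher after 8 h of actinomycin D than in either untreated library of mouse 3T3 cells, an established fibroblast line. They were chosen on that readout. Counts were divided by the factor that the authors' deposited table gives for each library, an end needed 60 raw reads over the 2 controls, and its scaled 8 h count had to be at least 1.5 times the larger of the 2 scaled control counts. Of 33590 annotated ends, 13418 had the 60 reads, and 475 of these met the fold. They are called accumulating ends below, and "all ends" are the 13418, accumulating ends included.

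The study measured how the position of the mRNA 3′ end goes with mRNA stability and translation. The 12 libraries used here are all 2P-Seq libraries of 3T3 cells, a method that fragments poly(A)-selected RNA with RNase T1, starts reverse transcription at the poly(A) stretch, and sequences the circularised product from there. One library each came from cells in actinomycin D at 10 µg/ml for 1, 2, 4 and 8 h, 6 libraries came from fractions 1 to 6 of a sucrose gradient for which the labels give no drug, and 2 were untreated controls. Per the file headers every annotated end comes from 3P-Seq, a ligation-based assay whose 2 libraries were not analysed here.

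Actinomycin D binds DNA and stops RNA polymerases, so that RNA made before the drug decays without being replaced. A poly(A)-primed assay sees only RNA that carries a poly(A) tail or another run of A, so its counts depend on RNA amount and on polyadenylation together. In a sucrose gradient an mRNA that carries more ribosomes sediments further, and RNA outside ribosomes stays near the top.

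Treated libraries held 4045420 to 6111232 reads, the gradient libraries 1663346 to 11575417, and the controls 5843403 and 6433503. After division by the factors, the 8 h library totalled 80.5% of the mean control total. The median end stood at 0.310 of its larger control at 8 h. The origin of the factors is not stated, and a level "above the control" in what follows is a level on that scale. Fewer cells and less RNA per cell cannot be told apart in these bulk samples.

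The most accumulating ends lay on chromosomes 11 (48 of 1165 ends with 60 control reads, 4.12%), 7 (41 of 842, 4.87%) and 10 (37 of 772, 4.79%). Over the chromosomes, accumulating ends made up 2.05% (chromosome 19) to 5.02% (chromosome 6) of such ends. Of the 475 accumulating ends, 228 (48%) lay on the plus strand. Their control reads ran from 60 to 96362 with a median of 345, against a median of 294 for all ends. The 8 h level was 1.5 to 2 times the larger control for 343 ends, 2 to 3 times for 91 and 3 times or more for 41, with a highest ratio of 15.3. These bands were drawn after the data were seen, and all values at 8 h over the controls describe the choice itself. The ends just inside the limit lay at 64026472 on chromosome 9, 97622235 on chromosome 15 and 148438981 on chromosome X, all on the plus strand, with ratios of 1.5003 to 1.5008. Those just outside lay at 133766762 on chromosome 7 (minus strand), 113566687 on chromosome 6 and 56106407 on chromosome 14 (both plus strand), with ratios of 1.4966 to 1.49996. The deposited positions come without gene names and are in the mm9 build, of which no annotation was used here, so ends are given by position alone.

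The ends differed in their course between 1 and 8 h. Levels at 1, 2 and 4 h relative to the controls share those controls with the choice of ends, so they too are a description, with no test. Medians of the scaled count over the larger control at 1, 2, 4 and 8 h were 1.12, 1.37, 1.52 and 1.75 for the accumulating ends, against 0.851, 0.668, 0.501 and 0.310 for all ends. The 1.5- to 2-fold ends were already above the larger control at 1 h, with medians of 1.17, 1.36, 1.44 and 1.66. The 2- to 3-fold ends had medians of 0.955, 1.35, 1.68 and 2.30. The ends with 3-fold or more started lowest, at a median of 0.556 at 1 h, and then stood at 1.45, 2.31 and 4.25. At 1 h, 298 accumulating ends (62.7%) were above both controls and 75 (15.8%) below both, against 30.4% and 41.8% of all ends. Of the ends with 3-fold or more, 5 of 41 (12.2%) were above both controls at 1 h and 16 (39%) below both. The level was above the larger control in 407 accumulating ends (85.7%) at 2 h and in 450 (94.7%) at 4 h, against 20.6% and 15.8% of all ends. The highest of the 4 times was 8 h for 365 accumulating ends, 4 h for 52, 2 h for 52 and 1 h for 6. The ends were chosen on a high 8 h level, so these counts restate the choice in part.

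**Figure D1:**
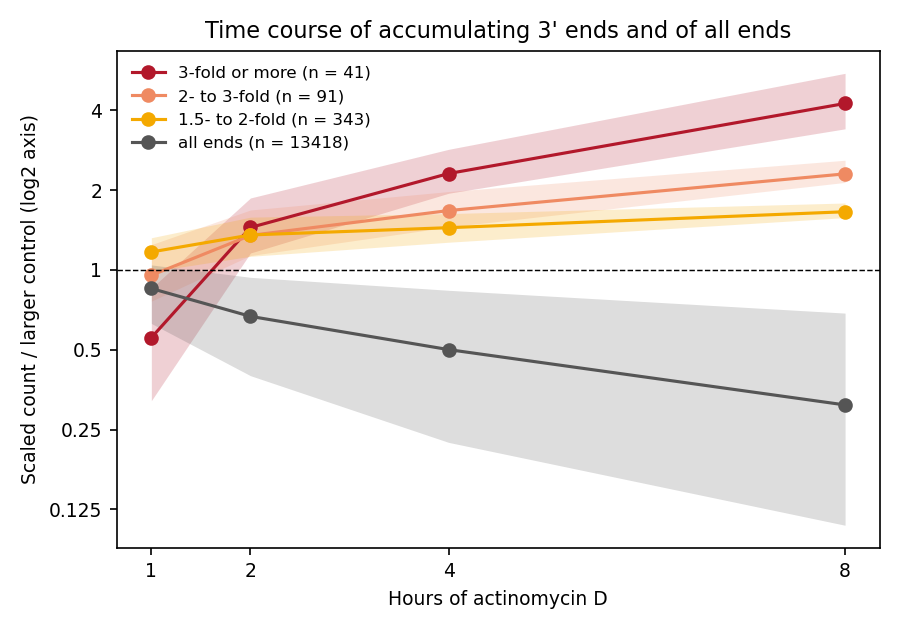
Median scaled count over the larger control (log2 axis) after 1, 2, 4 and 8 h of actinomycin D for accumulating ends in 3 bands of their 8 h ratio and for all ends, with shading between quartiles. The ends of 3-fold or more have a median of 0.556 at 1 h and 4.25 at 8 h, while all ends have 0.851 at 1 h and 0.310 at 8 h.

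The 1, 2 and 4 h libraries were not used in choosing the ends, and the slope over them was tested. Its calls are still not independent of the choice, because they differed with the agreement of the controls that set the limit. A line on hours was fitted at each of the 13418 ends by edgeR's quasi-likelihood test with the deposited factors, with Benjamini-Hochberg adjustment over all of them and calls at an adjusted p under 0.05. In this fit 98 accumulating ends rose (20.6%), where 1.31% of all ends rose (176 ends). One accumulating end fell, where 36% of all ends fell (4829 ends). The median slope was 0.13 log2 units per hour for the accumulating ends and -0.25 for all ends, and 409 accumulating ends (86.1%) had a slope above 0, against 16.7% of all ends. The calls followed the size of the 8 h ratio, in bands drawn after the data were seen. Of the 41 ends with 3-fold or more 32 rose (78%), of the 91 with 2- to 3-fold 39 (42.9%), and of the 343 with 1.5- to 2-fold 27 (7.87%). Where the controls lay more than 2 times apart, 33 of 44 accumulating ends rose (75%), against 6.38% of all ends so restricted. Where they lay within 1.5 times, 43 of 371 rose (11.6%), against 0.671% of all ends so restricted. TMM scaling, which sets the typical end to no change, moved the median slope of the accumulating ends to 0.36 and that of all ends to -0.02, and the calls to 317 accumulating ends rising and 0 falling, where 8.57% of all ends rose and 12.1% fell. RLE scaling called 357 accumulating ends rising and 0 falling, where 11.7% and 12.9% of all ends were called. DESeq2, which used its own scaling and not the deposited factors, called 163 rising and 0 falling, where 2.68% and 2.71% of all ends were called. Its median slope was 0.37 for accumulating ends and -0.006 for all ends, so tool and scaling changed together. Each time had 1 library, and nothing in the labels says that libraries came from separate cultures, so p-values reflect the scatter of single libraries about a line, which may be technical.

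Steps between neighbouring times were also above 0 for most accumulating ends. The count was higher at 2 h than at 1 h for 368 (77.5%), and higher at 4 h than at 2 h for 326 (68.6%), against 23.9% and 22.5% of all ends. Both held for 236 (49.7%), against 5.98% of all ends. Among the ends of 3-fold or more, 36 of 41 (87.8%) had both. The median step between 1 and 2 h was 0.32 log2 units for accumulating ends, 1.59 for those of 3-fold or more and -0.36 for all ends. The median step between 2 and 4 h was 0.16 for accumulating ends, 0.73 for those of 3-fold or more and -0.40 for all ends. For the ends of 3-fold or more the first of these steps was the larger.

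The end with the largest ratio lay at 5795999 on chromosome 19, minus strand. Its scaled counts were 175 and 102 in controls 1 and 2, then 138, 552, 1523 and 2684 with 1, 2, 4 and 8 h of drug. The 1 h count lay between the controls and the later 3 lay above both. The 8 h level was 15.3 times the larger control (exact 95% interval 13.1 to 18.1, counting error only, as PCR reads without molecular identifiers are not independent molecules), and the count rose over 1, 2 and 4 h with a slope of 1.05 ± 0.112 (SE) log2 units per hour (edgeR adjusted p = 2.39e-08). A second end of the same strand, at 5795690, had 469 and 951 scaled counts without drug and 83.5, 64.5, 18.1 and 30.3 under it for 1, 2, 4 and 8 h. All 4 treated values of that end lay below both controls, and it fell over 1, 2 and 4 h with a slope of -0.74 ± 0.188 (edgeR adjusted p = 0.00101). The accumulating end held 98.9% (Wilson 95% interval 98.3 to 99.2) of the reads of this 2-end locus at 8 h, against 27.2% (23.8 to 30.9) in control 1 and 9.69% (8.04 to 11.6) in control 2.

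The next ends in order of ratio started from few reads. The end at 163645893 on chromosome X, minus strand, had 90.2 and 25 scaled counts in controls 1 and 2, then 20.6, 154, 340 and 941 with 1, 2, 4 and 8 h of drug. The end at 98357614 on chromosome 15, minus strand, had 70.9 and 29 without drug and 17.4, 86.7, 198 and 729 under it for 1, 2, 4 and 8 h. Both had a 1 h count below both controls and 3 later counts above both, and their 8 h ratios were 10.4 (8.32 to 13.2) and 10.3 (7.97 to 13.5). Both rose over 1, 2 and 4 h, with slopes of 1.05 ± 0.259 (edgeR adjusted p = 0.0234) and 0.97 ± 0.156 (edgeR adjusted p = 9.75e-07). The call of the chromosome X end was lost in edgeR under TMM (adjusted p = 0.142) and RLE scaling (adjusted p = 0.213).

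The end at 108550876 on chromosome 5, minus strand, had 44 and 19 scaled counts in controls 1 and 2, then 18.4, 64.5, 145 and 408 with 1, 2, 4 and 8 h of drug. Its ratio was 9.28 (6.69 to 13.2), and its 1 h count was below both controls. It rose over 1, 2 and 4 h with a slope of 0.86 ± 0.160 (edgeR adjusted p = 9.13e-06). The end at 97639649 on chromosome 11, minus strand, had 104 and 14 without drug and 15.2, 192, 274 and 938 under it for 1, 2, 4 and 8 h. Its 1 h count lay just above control 2 and its 2 h count above both controls, and its slope of 0.90 ± 0.705 did not pass the test (edgeR adjusted p = 0.506) although its 8 h ratio was 9.01.

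Agreement of the controls was better for the remaining 3 of the 8 ends with the largest ratios. The end at 36664968 on chromosome 6, minus strand, had 44 and 47 scaled counts in controls 1 and 2, then 40.1, 65.5, 137 and 359 with 1, 2, 4 and 8 h of drug. The end at 102860995 on chromosome 3, plus strand, had 170 and 144 without drug and 113, 358, 484 and 1101 under it for 1, 2, 4 and 8 h. Both had a 1 h count below both controls and later counts above both. The end at 6084810 on chromosome 17, plus strand, had 103 and 68 in controls 1 and 2, then 102, 280, 313 and 657 with 1, 2, 4 and 8 h of drug. Its 1 h count lay between the controls, and the ratios of the 3 ends were 7.64, 6.49 and 6.38. All 3 rose over 1, 2 and 4 h, with slopes of 0.58, 0.58 and 0.43 (edgeR adjusted p = 0.00111, 0.000747 and 0.00618). Without control 1, the ratios to control 2 alone were 26.3, 37.6, 25.2, 21.5 and 67.0 for the first 5 of the 8 ends, and 7.64, 7.65 and 9.67 for these 3.

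**Figure D2:**
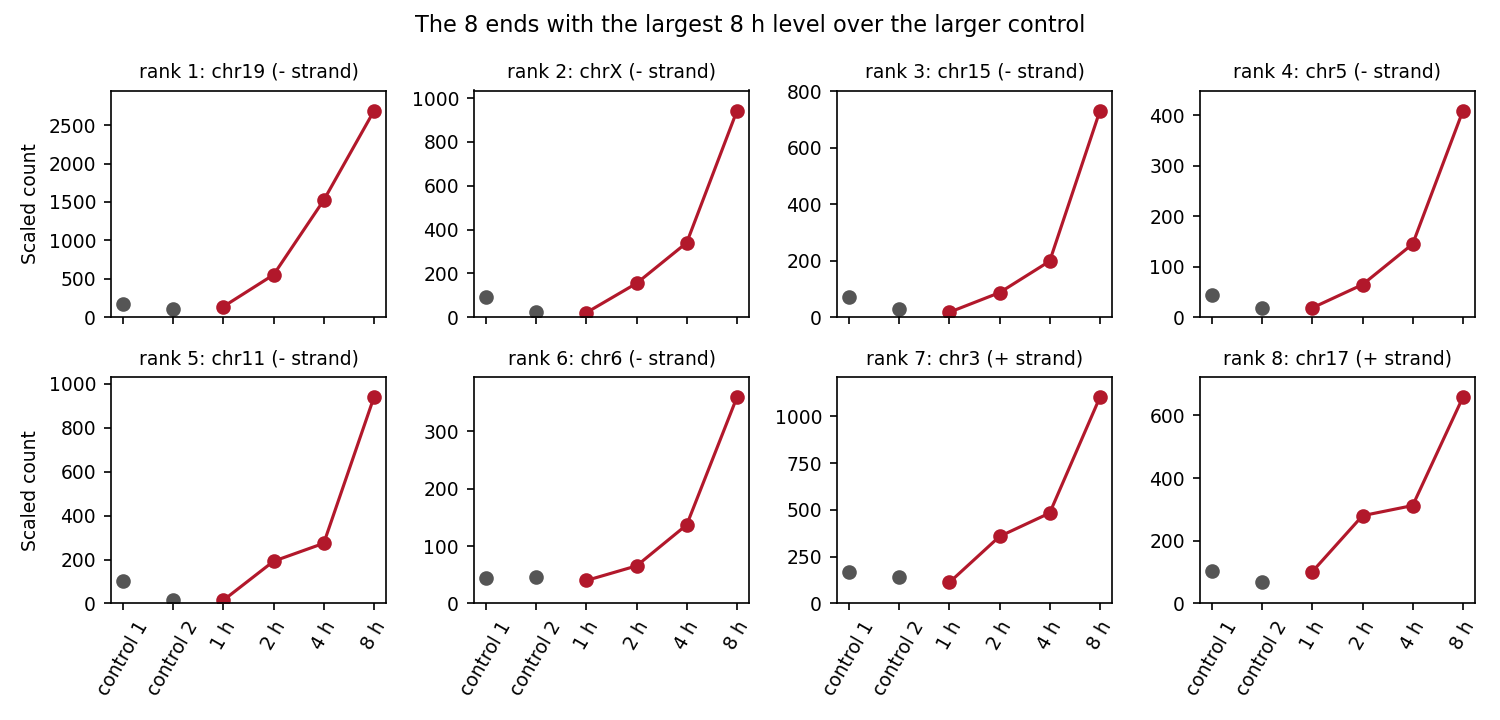
Scaled counts in control 1, control 2 and after 1, 2, 4 and 8 h of actinomycin D (linear axes from 0) for the 8 accumulating ends with the largest 8 h ratio, 1 point per library. In every panel 8 h is the highest library, and control 1 is above control 2 in all panels but rank 6, where they are 44 and 47.

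The steepest slope over 1, 2 and 4 h belonged to an abundant end, at 36538656 on chromosome 15, minus strand. It had 4017 and 1778 scaled counts without drug and 1307, 4997, 13923 and 23759 under it for 1, 2, 4 and 8 h. The 1 h count was below both controls, the others were above both, and the slope was 1.06 ± 0.110 (edgeR adjusted p = 1.43e-08). In the gradient 76.6% of its scaled counts were in fraction 1. The end at 29922412 on chromosome 2, plus strand, with 75.1 and 18 in the controls and 8.68, 64.5, 151 and 381 at 1, 2, 4 and 8 h, rose with a slope of 1.04 (edgeR adjusted p = 1.05e-05). The end at 52190202 on chromosome 11, plus strand, with 59 and 7 in the controls and 11.9, 65.5, 160 and 274 at 1, 2, 4 and 8 h, rose with a slope of 1.01 (edgeR adjusted p = 1.13e-06). The 2 h count lay between the controls in the first and above both in the second, and the 4 and 8 h counts lay above both in each. The call of the chromosome 2 end was lost with DESeq2 (adjusted p = 0.0933). In the 5 ends with the steepest slopes (these 3 and those at 5795999 and 163645893), leaving out the 4 h library gave slopes of 1.93 to 2.87 and leaving out the 1 h library 0.57 to 0.74, as values with no test.

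The single accumulating end called falling lay at 50148576 on chromosome 6, plus strand. It had 59 and 71 scaled counts in controls 1 and 2, then 98.7, 76.1, 41.9 and 120 with 1, 2, 4 and 8 h of drug. Its 4 h count was below both controls and the counts on either side were above both. The slope was -0.41 ± 0.160 (edgeR adjusted p = 0.0335), and the call was lost under TMM and RLE scaling, with DESeq2 and without the read minimum. The next lowest slopes, of ends at 86247249 on chromosome 8 (-0.39) and 123698534 on chromosome 5 (-0.25), both on the plus strand, did not pass the test (edgeR adjusted p = 0.0561 and 0.159).

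The most abundant accumulating ends were above both controls from 1 h on, with 8 h ratios of 1.55 to 1.94. The most abundant, at 163645025 on chromosome X, minus strand, had 42732 and 56558 scaled counts without drug and 68131, 68200, 79277 and 89594 under it for 1, 2, 4 and 8 h. The end at 13512033 on chromosome 7, plus strand, had 40364 and 36195 in controls 1 and 2, then 49426, 59882, 64300 and 73172 with 1, 2, 4 and 8 h of drug. In both, every treated count lay above both controls. The end at 10059583 on chromosome 19, plus strand, had 31367 and 28966 without drug and 36767, 46614, 44838 and 54666 under it for 1, 2, 4 and 8 h, again all above the controls. The same held for the other 5 of the 8 most abundant ends, at 78760623 on chromosome 15, 93330208 on chromosome 3 and 116372117 on chromosome 4 (plus strand) and at 57956632 and 3761619 on chromosome 4 (minus strand). Slopes over 1, 2 and 4 h were 0.07 to 0.16 in these 8 ends, and none passed the test (edgeR adjusted p = 0.147 to 0.575), which does not show that their levels were constant over these times.

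The controls differed from each other at many of these ends, and the difference was described because the larger control set the limit. Over the 475 ends, log2 of control 1 over control 2 had a median of 0.00 and an SD of 0.59, against a median of -0.09 and an SD of 0.51 for all ends. The controls lay more than 1.5 times apart in 104 accumulating ends (21.9%), against 22.3% of all ends. The direction differed by band. Control 1 was more than 2 times control 2 in 19 of the 41 ends with 3-fold or more (46.3%) and in 38 of all 475 (8%), against 1.51% of all ends. Control 2 was more than 2 times control 1 in 6 of 475 (1.26%), against 5.16% of all ends. Control 1 was the higher in 90.2% of the ends with 3-fold or more, 62.6% of those with 2- to 3-fold and 42.3% of those with 1.5- to 2-fold, against 41.9% of all ends.

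The ratio of the controls was set beside the ratio of 2 h to 1 h, which uses none of the same libraries. Both controls entered the choice of the ends and of their bands, so correlations within these sets are a description only. Counts had 0.5 added. Across ends, Pearson's r between the log2 ratios was 0.57 and Spearman's rho 0.36 over the 475 accumulating ends. They were 0.64 and 0.69 over the 41 ends with 3-fold or more, and 0.17 and 0.17 over all 13418 ends. The points share the same 4 libraries and their depth, and ends are not independent replicates. Where control 1 was more than 2 times control 2, the median step between 1 and 2 h was 1.48 log2 units in the 38 accumulating ends and 0.0039 in the 202 of all ends. Where the controls lay within 2 times of each other it was 0.28 in the accumulating ends and -0.35 in all ends. The part of the difference between the controls in the course over 1, 2 and 4 h was not tested.

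**Figure D3:**
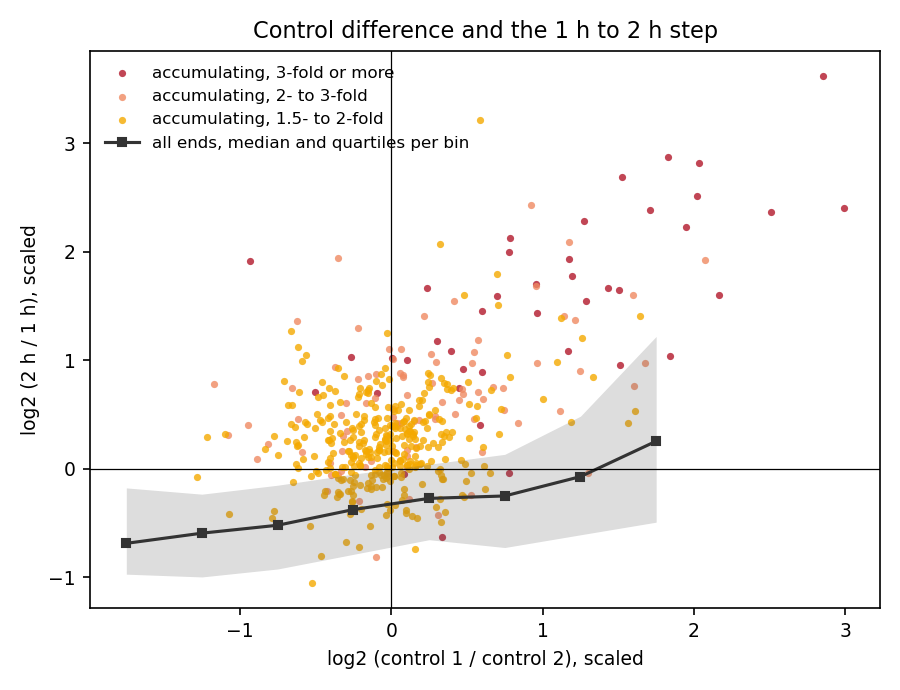
Log2 of 2 h over 1 h against log2 of control 1 over control 2 (scaled counts), 1 point per accumulating end coloured by the band of its 8 h ratio, with the median and quartiles of all ends in bins of the control ratio. Ends with 3-fold or more lie mostly to the upper right of 0, and r over the 475 points is 0.57.

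Restricting the ends to those whose controls lay within 1.5 times of each other, a subset chosen after seeing the data, left 371 accumulating ends. Of these 43 rose over 1, 2 and 4 h (11.6%), where 0.671% of all ends so restricted rose. The median 8 h ratio in the subset was 1.71 and the highest 7.64. Among the 44 accumulating ends whose controls lay more than 2 times apart, 33 rose (75%), where 6.38% of all ends so restricted rose.

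In the gradient the accumulating ends lay nearer the top than the typical end. The gradient used neither the controls nor a treated library, so its slope on fraction number could be tested, with TMM scaling in edgeR's quasi-likelihood test over the 13418 ends and Benjamini-Hochberg adjustment. Each fraction had 1 library of a single gradient, so p-values reflect scatter about a line, including any curvature of an end's profile. A negative slope (lighter) was called in 101 accumulating ends (21.3%), where it was called in 3.92% of all ends (526 ends). Lighter and heavier describe position within this gradient and compare no treatments. A positive slope (heavier) was called in 0 accumulating ends, where it was called in 0.313% of all ends (42 ends). At an unadjusted edgeR p under 0.05, 31 of the 475 accumulating ends were heavier and 155 lighter. Of the 13418 ends, 833 were heavier and 1323 lighter at that threshold. The median slope was -0.17 log2 units per fraction for the accumulating ends and 0.04 for all ends. The lighter calls were made in 71 ends with 1.5- to 2-fold (20.7%), 15 with 2- to 3-fold (16.5%) and 15 with 3-fold or more (36.6%). With the deposited factors in place of TMM the median slope was 0.29 for accumulating ends and 0.52 for all ends, and 42 accumulating ends were called lighter and 139 heavier, where 1.04% and 48.8% of all ends were. RLE scaling called 103 lighter and 1 heavier, where 4.05% and 0.373% of all ends were, and DESeq2 called 145 lighter and 2 heavier, where 7.18% and 0.939% were. The direction of the calls thus depends on the scaling, while the median slope of accumulating ends stayed below that of all ends under both. Leaving out fraction 5 reduced the lighter calls to 44 (9.26%), where 0.961% of all ends were called lighter. Leaving out fraction 1 gave 19 heavier calls (4%), close to the 3.30% of all ends called heavier.

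Median shares of an end's scaled gradient counts in fractions 1 to 6 were 4.63, 9.06, 19.2, 15.97, 12.3 and 12.7% for accumulating ends, against 3.92, 6.56, 18.1, 17.2, 17.5 and 26.8% for all ends. The fraction with the largest share was one of fractions 1 to 3 in 212 accumulating ends (44.6%), against 21.9% of all ends, and fraction 6 in 129 (27.2%), against 48%. More than 50% of the gradient counts were in fraction 1 in 8 accumulating ends (1.68%), against 0.231% of all ends. In the authors' deposited table, the ribosomes per mRNA had a median of 5.01 for accumulating ends and 6.47 for all ends. The value was under 3 for 77 accumulating ends (16.2%) and 2.18% of all ends, and over 8 for 65 (13.7%) and 15.9% of all ends. The accumulating ends thus spanned the gradient, with a larger share of light ends than the typical end.

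**Figure D4:**
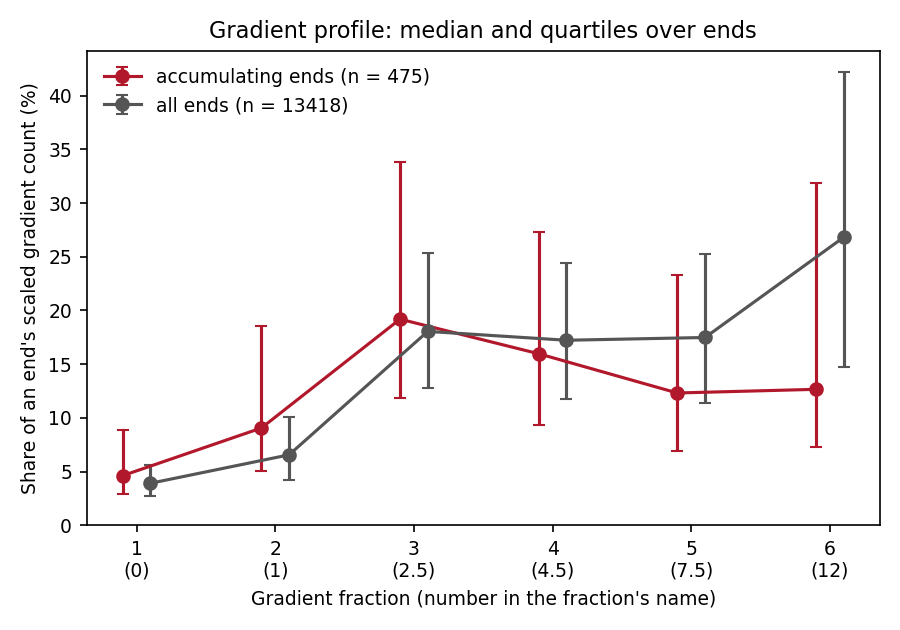
Median share of each end's scaled gradient counts in fractions 1 to 6, with the number in each fraction's column name in brackets, for accumulating ends and all ends; bars run between quartiles. The accumulating ends have 9.06% in fraction 2 and 12.7% in fraction 6, while all ends have 6.56% and 26.8%.

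Abundant and rare ends both contributed to the light group. The chromosome X end at 163645025 had 4.55, 36.0, 44.6, 7.77, 3.19 and 3.91% of its scaled gradient counts in fractions 1 to 6 and a slope of -1.12 ± 0.307 (edgeR adjusted p = 0.0271). The chromosome 19 end at 10059583 had 58.8, 7.91, 17.1, 8.85, 4.10 and 3.26% and a slope of -1.29 ± 0.223 (edgeR adjusted p = 0.000214). The chromosome 15 end at 78760623 had 4.2, 5.37, 22.1, 39.2, 18.7 and 10.4%, and its slope of -0.06 did not pass the test (edgeR adjusted p = 0.931). The first was therefore highest in fractions 2 and 3, the second in fraction 1 and the third in fraction 4. The chromosome 4 end at 116372117 was highest in fraction 5 (48.1%).

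The ends with the most negative called slopes were of lower abundance. That at 79454805 on chromosome 3, minus strand, had 53.2, 23.9, 18.3, 2.65, 1.26 and 0.737% in fractions 1 to 6 and a slope of -1.84 ± 0.197 (edgeR adjusted p = 6.62e-08). The other 4 lay at 9685342 on chromosome 5 and 70444223 on chromosome 12 (minus strand) and at 96490381 on chromosome 3 and 21873109 on chromosome 14 (plus strand), with slopes of -1.71, -1.59, -1.70 and -1.58. Each had its largest share in fraction 1 or 2. The smallest p-values toward heavier fractions belonged to ends at 43806356 on chromosome 1 and at 108108300 and 53390518 on chromosome 9, all on the minus strand, whose slopes of 0.56, 0.77 and 0.69 did not pass the test (edgeR adjusted p = 0.0513, 0.0746 and 0.0769). All 3 passed with the deposited factors (edgeR adjusted p = 0.00181, 0.00116 and 0.00139), with no read minimum, with the number in the fraction name as covariate and without fraction 1, and the chromosome 1 end also under RLE scaling (adjusted p = 0.0494) and with DESeq2 (adjusted p = 0.0185). Over their alternatives the edgeR adjusted p ran up to 0.206, 0.788 and 0.399.

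Of the 8 ends with the largest 8 h ratios, 4 were called lighter: the chromosome 19 end at 5795999 (55.3% in fraction 2), the chromosome X end at 163645893 (41.9% in fraction 2), the chromosome 15 end at 98357614 (36.0% in fraction 1) and the chromosome 11 end at 97639649 (32.5% in fraction 2). The call of the chromosome 15 end rested on 10, 7, 3, 5, 10 and 4 raw reads in fractions 1 to 6 (edgeR adjusted p = 0.0254). The chromosome 5 end at 108550876 was highest in fraction 5 (38.6%) and the chromosome 6 end at 36664968 also in fraction 5 (42.2%). Rising over 1, 2 and 4 h and a lighter position in the gradient were called together in 28 accumulating ends (5.89%), 12 of them with 3-fold or more, against 0.261% of all ends. Taken singly, the 2 calls were made in 98 and 101 accumulating ends, and a link between them was not tested.

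Some ends had few gradient reads for their level in the controls. The log2 of summed scaled gradient counts over the mean control, less its median over all ends, had a median of 0.03 in accumulating ends. It was 0.18 in the ends with 1.5- to 2-fold, -0.51 in those with 2- to 3-fold and -0.65 in those with 3-fold or more. Under 0.25 times the typical ratio lay 44 accumulating ends (9.26%), against 4.02% of all ends, and 26.8% of those with 3-fold or more. The lowest, at 16702475 on chromosome 7, plus strand, had 509 and 459 raw reads in the controls and 626, 911, 830 and 662 at 1, 2, 4 and 8 h, and lay at -6.42. The next lay at 29922412 on chromosome 2 (-4.41) and 127995728 on chromosome 10, minus strand (-4.34). These 3 were singled out after their values were seen.

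No other annotated end lay within 2000 nt on the same strand for 122 (25.7%), against 26.3% of all ends. With a distance of 500 nt the shares were 37.5% and 43.4%, and with 5000 nt 20.4% and 19.9%. When only neighbours with 60 control reads were counted within 2000 nt, 185 accumulating ends had none (38.9%), against 49.5% of all ends. The nearest end of the strand lay under 100 nt away for 184 (38.7%), against 33.5% of all ends. An end of the opposite strand lay within 500 nt of 37 (7.79%), against 7.96%.

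Place within a locus was described next. Ends each within 2000 nt of the next on a strand were joined into loci, and 353 accumulating ends lay in loci of 2 or more ends. There 153 (43.3%) were the first end of the locus in the direction of transcription, 127 (36%) in the middle and 73 (20.7%) the last, against 28.3, 33.6 and 38.1% of all ends in such loci. Among those with 3-fold or more, 63.6% were first and 3.03% last. Over all 353 accumulating ends in such loci, the median share of the locus reads was 37.2% at 8 h and 27.2% in the controls, while that of all ends was 51.1% at 8 h and 53.7% in the controls. Under 10% of the locus in the controls was held by 114 accumulating ends (32.3%), and by 66.7% of those with 3-fold or more, against 11.9% of all ends. In 20 (5.67%) the end held over 50% of the locus at 8 h but not in the controls, against 4.21% of all ends. These shares describe place and abundance, and the difference from other ends was not tested. Shares of locus reads use the controls and the 8 h library that chose the ends, so they restate that choice in part.

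**Figure D5:**
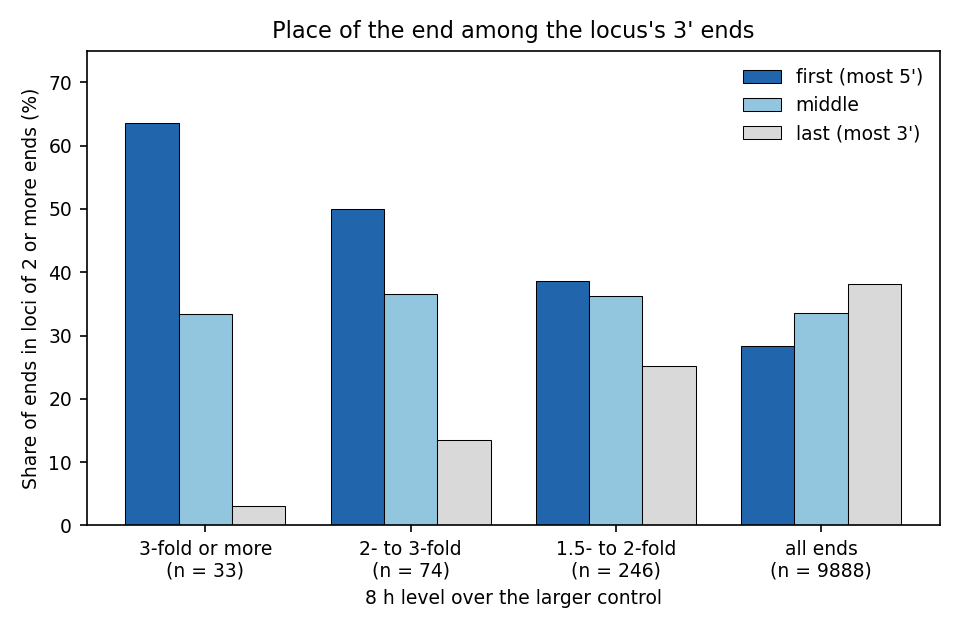
Percent of ends that are the first, a middle or the last end of their locus in the direction of transcription, for accumulating ends in 3 bands of the 8 h ratio and for all ends in loci of 2 or more ends. First ends make up 63.6% of the ends with 3-fold or more and 28.3% of all ends.

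Of the 8 ends with the largest ratios, 7 had another end within 2000 nt, and in each of them the most abundant such neighbour lay downstream. The distances were 36 nt on chromosome 17 (neighbour at 6084846), 38 nt on chromosome 6 (36664930), 215 nt on chromosome 5 (108550661), 309 nt on chromosome 19, 316 nt on chromosome 11 (97639333), 731 nt on chromosome 3 and 868 nt on chromosome X. The chromosome 17 neighbour is itself an accumulating end with a ratio of 1.54, and the chromosome 6 neighbour lay just under the limit at 1.49. The chromosome 6 neighbour had 3697 and 5716 scaled counts without drug and 5797, 5761, 5781 and 8532 under it for 1, 2, 4 and 8 h. Its treated counts all lay above both controls, and the slope over 1, 2 and 4 h was 0.58 for the accumulating end and 0.00 for this neighbour. The chromosome 11 neighbour had 9134 and 10102 in controls 1 and 2, then 12492, 14185, 16900 and 16710 with 1, 2, 4 and 8 h of drug, all above both controls, and is itself an accumulating end with a ratio of 1.65. The chromosome X end at 163645893 lies upstream of the most abundant accumulating end at 163645025 and held 1.04% (Wilson 95% interval 0.967 to 1.12) of the reads of their locus at 8 h, against 0.211% (0.170 to 0.261) in control 1 and 0.0442% (0.0299 to 0.0652) in control 2. On chromosome 3 the end at 102860995 held 36.6% (34.7 to 38.6) of its locus at 8 h, against 13.3% (11.5 to 15.3) in control 1 and 6.33% (5.40 to 7.41) in control 2. Its more abundant neighbour at 102861726 had 490 and 1176 scaled counts in controls 1 and 2, then 1179, 777, 890 and 1147 with 1, 2, 4 and 8 h of drug. Those at 2, 4 and 8 h lay between the controls and that at 1 h just above the larger one.

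Neighbours that were not themselves chosen were described in the same libraries. The 353 such neighbours with 60 control reads within 2000 nt, next to 236 accumulating ends, had a median 8 h level of 0.949 of the larger control, against 0.289 for the 12943 ends that do not accumulate. The level was above the larger control in 157 of them (44.5%), against 9.12% of those ends. Over 1, 2 and 4 h, 17 of the neighbours fell (4.82%) and 15 rose (4.25%), while 37.3% of the 12943 ends fell and 0.603% rose. In the gradient 31 were called lighter (8.78%), against 3.28%. Neighbours within 500 nt, 229 in number, had a median of 0.975. Loci with 2 or more accumulating ends numbered 50 and held 105 of the 475 ends. Some neighbours were nearly the same end: that at 10059604 on chromosome 19, plus strand, 21 nt from the accumulating end, had a ratio of 1.36 and 66.7% of its gradient counts in fraction 1.

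The half-lives in the authors' deposited table come from the same libraries and are given as a description. A half-life was given for 353 accumulating ends and missing for 122 (25.7%), against 126 missing of all ends (0.939%). All 41 ends with 3-fold or more were among the missing. Where given, the median was 19.4 for accumulating ends and 2.94 for all ends, and 43 accumulating ends stood at 50, the highest value in the table. The values were read as hours. For 310 of 310 accumulating ends below that value, the rate behind the half-life was the rate of an exponential least-squares fit to the scaled counts plus 0.1 per hour, within 0.001. The finite half-lives of the accumulating ends thus rest on the added 0.1, since 0 of these ends had a fitted rate of decay above 0.

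These data hold no measure of tail length. Because priming requires a run of A, a stable RNA counted against falling others, an RNA that gained a tail during the drug and priming at A-rich sequence inside a transcript cannot be told apart from the counts. The bases around the ends were not read, as the genome at hand is of another build, so priming within transcripts was not tested.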

How the data were processed

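The authors' deposited table gives raw read counts per poly(A) site, with mm9 positions and 1 scaling factor per library, per the file headers. Bowtie is named in the submitters' processing notes, without a version. The fraction columns, named 0, 1, 2.5, 4.5, 7.5 and 12, were assumed to be fractions 1 to 6 in that order. Per-sample columns left unused numbered 0. The half-life (read as hours) and the ribosomes per mRNA, a score, are the authors' deposited values.

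Counts were divided by the header factors to choose the ends and for every scaled level. Tests used edgeR 4.0.16 in R 4.3.3 (quasi-likelihood, robust), with header factors for hours and TMM for fractions. DESeq2 1.42.0, with its own scaling, was an alternative. Both fits covered all 13418 ends with 60 raw control reads and were tested on simulated data. The ends and the rule for naming them (the 8 most abundant, the 8 largest ratios, 3 on each side of the limit, up to 5 steepest calls each way or else the 3 smallest p-values, and the main neighbours) were chosen with earlier results of these data known. The fold bands and the subset with close controls were added after seeing the data. Alternatives covered scaling, tool, read minimum, fold, covariate, neighbour distance and leaving out libraries. Intervals cover counting error only.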

Additional observations from a re-analysis of the deposited data

How the results depend on the processing

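The number of accumulating ends depended on the scale: 475 became 1011 with scaling by library totals and 3701 with TMM, 723 to 847 when 1 control was left out, 132 at a fold of 2, 300 with 200 control reads and 1287 with no such minimum. Over 1, 2 and 4 h the accumulating ends called rising numbered 317 under TMM, 357 under RLE scaling, 163 with DESeq2 and 43 with controls within 1.5 times, and those falling 0 under TMM, RLE, DESeq2 and no read minimum. Of all ends, 1150, 1570 and 359 rose and 1617, 1726 and 364 fell under TMM, RLE and DESeq2. Of the 98 rising ends, 95 were also called under TMM and under RLE and 82 with DESeq2. In the gradient, the deposited factors gave 139 accumulating ends heavier and 42 lighter, and 6548 and 139 of all ends. Accumulating ends called heavier numbered 1 under RLE, 2 with DESeq2, 9 with no read minimum and 5 with the number in the fraction name as covariate. Of all ends, DESeq2 called 126 heavier and 964 lighter, and the fraction name 91 heavier. With no minimum 30274 ends were tested, of which 275 (0.908%) were called heavier and 1195 (3.95%) lighter. Leaving out 1 fraction gave 44 to 137 accumulating ends lighter, 0 to 19 heavier, and 4 to 443 of all ends heavier and 129 to 983 lighter. Counting only neighbours with 60 control reads gave 185 isolated ends. The causes were not tested. Without 1 of the 3 times the median slope of accumulating ends was 0.08 to 0.32 (a value with no test). No paired analysis was possible because each time and each fraction has 1 library. An end that did not pass a test is not shown to be unchanged at this depth.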
